A study of Mus musculus with 768 samples.

Results

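SPP1, FBP1, APOE and CHCHD10 were 4 of the 27723 genes in the expression table, written below as Spp1, Fbp1, Apoe and Chchd10. They were selected on measured values of these same cells, with earlier results known, among the largest falls over time: Spp1 and Fbp1 on the means at 30 h against 6 h, and Apoe and Chchd10 on the means at 48 h against 0 h. Their differences in those comparisons are descriptions and carry no test. The name under which they were grouped is a decline of Spp1, Fbp1 and Apoe. For Spp1 and Fbp1 at 30 h against 6 h it only restates that choice. For Apoe the decline was uneven, with a mean at 18, 24 and 30 h of 43.8 to 47.2 TPM, against 54.8 TPM at 6 h. At 36 h, in cells of fewer genes, mean Apoe was 30.6 TPM, against 439.9 TPM at 0 h.

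The cells were mouse embryonic stem cells of the line Ainv15(iNgn2.Isl1.Lhx3.V5), in which doxycycline turns on a cassette of 3 transcription factors, Neurog2 (written Ngn2 in the line's name), Isl1 and Lhx3, that directs them towards motor neurons. They were grown as embryoid bodies, floating aggregates, and taken at 0 h, before doxycycline, and after 6, 12, 18, 24, 30, 36 and 48 h in doxycycline at 3 µg/ml. At each time 96 viable single cells were sorted into wells and profiled by SMART-Seq2, which copies whole transcripts but here carried no molecular tags. All time points carry the same cassette, and no cells kept without doxycycline for the same hours were analysed here, so time in culture and the factors cannot be told apart. No separate culture, clone or plate is named in the labels at any time, which makes a time point 1 sample, and every spread below is between its cells.

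Spp1 encodes osteopontin, a secreted phosphoprotein that binds integrins and Cd44 and is abundant in bone, in activated macrophages and in some motor neurons. In mouse embryonal cells an intron of Spp1 is known to hold a palindromic recognition element of Oct factors, called the PORE, that is bound by Pou5f1 (Oct4). Fbp1 encodes the liver-type fructose bisphosphatase, which works against phosphofructokinase in gluconeogenesis. Apoe encodes a lipid-carrying apolipoprotein that in the brain comes mainly from astrocytes and is taken up through receptors at the cell surface. Chchd10 encodes a small protein of the mitochondrial intermembrane space, and human variants of it are a known cause of motor neuron disease.

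By RefSeq on the GRCm38.p6 build, Spp1 lies at chr5:104435111-104441053 on the plus strand, Fbp1 at chr13:62864753-62888298 on the minus strand, Apoe at chr7:19696244-19701310 on the minus strand and Chchd10 at chr10:75933130-75937750 on the plus strand. RefSeq lists 7 start windows for the 4 genes, 2 for Spp1, 1 for Fbp1, 3 for Apoe and 1 for Chchd10. In the 250 bases before each start, matches were sought on both strands to the octamer ATGCAAAT of Oct factors, to the Sox letters CATTGT, to the E-box CAGATG and to the PORE, which is the octamer preceded by ATTTGAA and so overlaps it. These motifs were chosen with the genes and their sequences known. The windows with an octamer are printed because the members' levels are set beside Pou5f1 below, with the matches in capitals. The Spp1 window is chr5:104435942-104436191 and the Chchd10 window chr10:75932880-75933129, both on the plus strand.
Spp1 window 2: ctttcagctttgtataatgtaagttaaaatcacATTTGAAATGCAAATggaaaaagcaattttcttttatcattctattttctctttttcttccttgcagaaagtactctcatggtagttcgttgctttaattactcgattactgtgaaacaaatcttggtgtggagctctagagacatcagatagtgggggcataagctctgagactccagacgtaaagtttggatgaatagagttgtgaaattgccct
Chchd10: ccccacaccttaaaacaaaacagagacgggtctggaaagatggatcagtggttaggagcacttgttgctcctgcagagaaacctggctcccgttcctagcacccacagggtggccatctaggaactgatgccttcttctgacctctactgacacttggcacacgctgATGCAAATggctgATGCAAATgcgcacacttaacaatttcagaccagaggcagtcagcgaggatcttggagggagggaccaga
The capitals in Spp1 are the PORE, 15 bases at chr5:104435975-104435989, which is 217 to 203 bases before the alternate RefSeq start. In the GENCODE M21 annotation 6 of the 7 Spp1 transcripts span it and 0 Spp1 exons overlap it, so it is intronic in them. It also lies in Gm42793, a model of a single exon on the same strand. The capitals in Chchd10 are 2 copies of the octamer, 83 to 76 and 70 to 63 bases before the start and outside all annotated exons of the gene. The octamer was found in 1.6% of 32851 windows of the same length, and 2 or more copies in 0.0974%. The PORE was found in 2 windows, 0.00609%, this Spp1 window among them. It was sought because it was known from Spp1, so its rarity is no finding. The first Spp1 window, the Fbp1 window and the 3 Apoe windows held no match to the octamer. A match to the Sox letters, which 10.7% of windows hold, was in 1 Apoe window, and the E-box, which 14.4% hold, was in no window of the 4 genes. These are matches of letters and show no binding.

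Depth set what could be seen. Of the 96 cells at each time, those with at least 2000 genes above 0 TPM (an abundance scaled for transcript length to the same total in every cell) were kept, 368 of 768. They numbered 53, 56, 55 and 57 at 6, 18, 24 and 30 h, with medians of 6481 to 7484 genes, and 37, 52, 44 and 14 at 0, 12, 36 and 48 h, with medians of 5304, 4268, 2894 and 2141 genes. No kept cell at 36 or 48 h had 4000 genes. The 6, 18, 24 and 30 h cells and the 0, 12, 36 and 48 h cells were treated as separate sets. Mean Sod1 was 518 to 807 TPM in the set from 6 h and 19553 to 65262 TPM in the set from 0 h. The labels state that libraries were made in 2 batches without saying which cells were in which, so levels are compared within a set only. The bounds beside each share of cells are 95% binomial limits (exact, Clopper-Pearson) for counting error alone among cells of 1 sample, and a share of 0 carries the limit that 3 cells of the total would give. At 48 h Tbp, a gene every cell uses, was itself at 0 in all 14 kept cells and Hprt was above 0 in 1, so a gene at 0 there is only said to be listed at 0. The limit for 14 cells, 21.4%, leaves such losses out.

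Spp1, the secreted ligand, was present in many cells at 6 h and in few at every later time of its set. At 6 h 24 of 53 cells had it above 0 (45.3%, interval 31.6 to 59.6%), as did 3 of 56 at 18 h (5.36%, 1.12 to 14.9%), 3 of 55 at 24 h (5.45%, 1.14 to 15.1%) and 3 of 57 at 30 h (5.26%, 1.10 to 14.6%). At 6 h the lowest and median cells were at 0 and the highest at 374 TPM, with a mean of 38.8 ± 85.7 TPM (SD over 53 cells). The 3 highest of the 6 h cells held 47.2% of the summed Spp1.

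After 6 h Spp1 stood in single cells. The 3 carriers at 18 h, cells above 0, had 179, 6.6 and 2.96 TPM, those at 24 h 90.7, 53.6 and 47.9 TPM, and those at 30 h 78.2, 2.89 and 2.59 TPM. The median of the 6 h carriers was 43.2 TPM, so the 24 h carriers and the highest cells at 18 and 30 h were as high as typical 6 h carriers. Means were 3.37 ± 24.0 TPM at 18 h, 3.50 ± 15.3 at 24 h and 1.47 ± 10.4 at 30 h. On the scale of log2(mean TPM + 1), used for all fold changes below, the difference was -3.19 at 18 h, -3.14 at 24 h and -4.01 at 30 h, each against 6 h. A single cell held 94.9% of the summed Spp1 at 18 h and 93.4% at 30 h. Without the highest cell of each time point the differences were -4.83 at 18 h and -4.92 at 30 h.

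**Figure D1:**
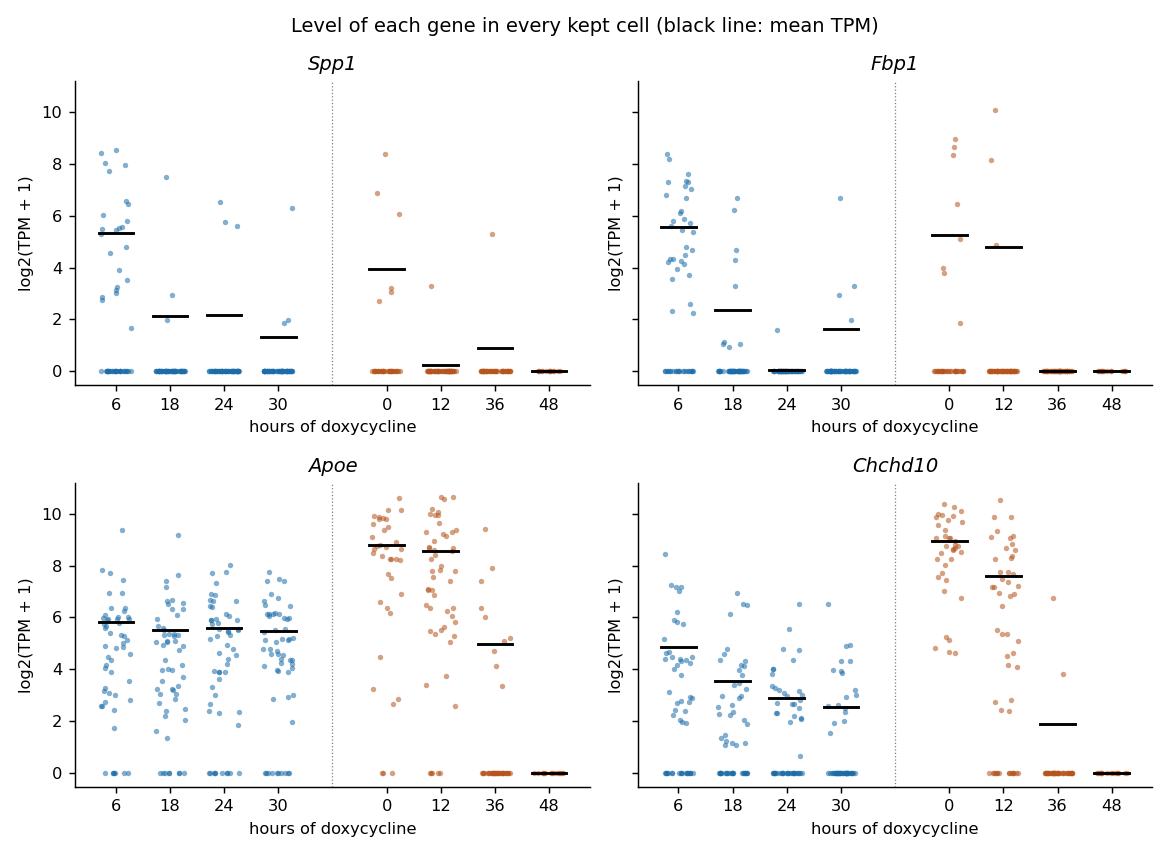
Level of Spp1, Fbp1, Apoe and Chchd10 in every kept cell as log2(TPM + 1), by hours of doxycycline, with the 6, 18, 24 and 30 h set in blue and the 0, 12, 36 and 48 h set in orange (n = 53, 56, 55, 57 and 37, 52, 44, 14 cells). Points are cells, spread sideways at random, and black lines are mean TPM on the same scale. Spp1 and Fbp1 thin out to few cells after 6 h, and Apoe stays in most cells from 6 to 30 h. The highest Apoe cell had 668 TPM at 6 h, 578 TPM at 18 h, 260.0 TPM at 24 h and 214 TPM at 30 h. All 4 genes are listed at 0 at 48 h.

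In the other set Spp1 was sparse from the start. At 0 h 6 of 37 cells had it (16.2%, 6.19 to 32.0%), as did 1 of 52 at 12 h (1.92%, 0.0487 to 10.3%), and 1 of 44 at 36 h (2.27%, 0.0575 to 12.0%), and at 48 h it is listed at 0. The highest cell had 332 TPM at 0 h, 8.85 TPM at 12 h and 37.7 TPM at 36 h. Spp1 did not pass the filter on low values here, which asked for 10 TPM or more on average at whichever time was higher, and for the gene to be above 0 in 25% or more of the cells of that time.

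Fbp1, the gluconeogenic enzyme, was in more of the 6 h cells than Spp1 and was also rare later. At 6 h 32 of 53 cells had it (60.4%, 46.0 to 73.5%), as did 9 of 56 at 18 h (16.1%, 7.62 to 28.3%), 1 of 55 at 24 h (1.82%, 0.0460 to 9.72%) and 4 of 57 at 30 h (7.02%, 1.95 to 17.0%). At 6 h the lowest cell was at 0, the median at 14.3 TPM and the highest at 335 TPM, around a mean of 45.8 ± 74.4 TPM.

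The Fbp1 carriers were also lower. At 6 h their median was 45.1 TPM, and at 18 h it was 8.71 TPM, where the 9 carriers ran from 0.90 to 101 TPM. The lone 24 h carrier had 2.04 TPM, and at 30 h 1 cell with 103 TPM stood above 3 cells of 2.97 to 8.64 TPM. Mean levels were 4.10 TPM at 18 h, 0.0371 TPM at 24 h and 2.14 TPM at 30 h. The log2 difference from 6 h was -3.20 at 18 h, -5.50 at 24 h and -3.90 at 30 h, and -4.96 at 30 h without the highest cells. At 30 h against 6 h Spp1 and Fbp1 were the 4th and 5th lowest of 6317 genes that passed the filter, next to genes at -4.04 and -3.85, which is the ranking that chose them.

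In the set from 0 h 8 of 37 cells had Fbp1 at 0 h (21.6%, 9.83 to 38.2%) and 3 of 52 had it at 12 h (5.77%, 1.21 to 15.9%). At 36 h 0 of 44 cells had it, a count that leaves room for 6.82%, and at 48 h it is listed at 0. The 3 carriers at 12 h had 1081, 282 and 28.1 TPM. The mean was 26.7 TPM at 12 h, against 37.2 TPM at 0 h, and 6.07 TPM at 12 h, against 24.4 TPM at 0 h, without the highest cell of each. The log2 difference of -0.46 ran from -2.21 to 3.17 over the alternatives, with 1.02 in even-numbered cells and 0.02 in all cells, so no direction is given. Fbp1 did not pass the filter in this set.

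Apoe, the lipid carrier, was present in most cells from 6 to 30 h at nearly 1 level. At 6 h 46 of 53 cells had it (86.8%, 74.7 to 94.5%), as did 48 of 56 at 18 h (85.7%, 73.8 to 93.6%), 45 of 55 at 24 h (81.8%, 69.1 to 90.9%) and 47 of 57 at 30 h (82.5%, 70.1 to 91.3%). Median levels were 28.9, 18.2, 29.6 and 26.4 TPM at 6, 18, 24 and 30 h. Means were 54.8 ± 99.5, 44.5 ± 84.5, 47.2 ± 57.5 and 43.8 ± 48.8 TPM. The highest cells had 668, 578, 260.0 and 214 TPM, and the lowest were at 0 at all 4 times. The cells overlapped throughout, and the log2 difference from 6 h was -0.29 at 18 h, -0.21 at 24 h and -0.32 at 30 h. Taking all 96 cells of each time, those of few genes included, gave -0.50, 0.48 and -1.87 at these times, and a limit of 1000 genes gave 0.28 at 18 h and 0.47 at 24 h.

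In the other set mean Apoe was at least 2-fold lower at 36 h than at 0 h, and within 2-fold of it at 12 h. At 0 h 34 of 37 cells had it (91.9%, 78.1 to 98.3%), as did 47 of 52 at 12 h (90.4%, 79.0 to 96.8%) and 10 of 44 at 36 h (22.7%, 11.5 to 37.8%). The median cell had 352 TPM at 0 h, 202 TPM at 12 h and 0 at 36 h, and the highest 1540.3, 1616 and 672 TPM. Means were 439.9 ± 392 TPM at 0 h, 374 ± 438 TPM at 12 h and 30.6 ± 109 TPM at 36 h. The log2 difference from 0 h was -0.23 at 12 h, but 0.84 with all cells, and -3.80 at 36 h, or -4.62 without the highest cells. At 48 h Apoe is listed at 0 in every kept cell.

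Chchd10, the mitochondrial protein, had a lower mean at each later time in both sets of kept cells. From 6 h it was above 0 in 34 of 53 cells (64.2%, 49.8 to 76.9%), in 32 of 56 at 18 h (57.1%, 43.2 to 70.3%), in 27 of 55 at 24 h (49.1%, 35.4 to 62.9%) and in 18 of 57 at 30 h (31.6%, 19.9 to 45.2%). Neighbouring times did not differ beyond their intervals, while the intervals of 6 and 30 h, for counting error in 1 sample each, did not overlap. Means were 27.9 ± 58.7, 10.8 ± 24.4, 6.43 ± 14.1 and 4.87 ± 13.4 TPM, and the highest cells 345, 123, 89.3 and 89.8 TPM. The median of carriers was 19.2 TPM at 6 h and 6.90 to 7.60 TPM at the later times, so carriers were fewer and lower. The log2 difference from 6 h was -1.29 at 18 h, -1.96 at 24 h and -2.30 at 30 h. Taking all 96 cells turned it round at 24 h, to 1.62, and gave -0.02 at 18 h. At 18 h it was also within 2-fold with a limit of 1000 genes (-0.19) and with a pseudocount of 10 (-0.86).

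At 0 h Chchd10 was in all 37 kept cells (100%, lower bound 90.5%), with a lowest cell of 23.6, a median of 428 and a highest of 1327 TPM. At 12 h 37 of 52 cells had it (71.2%, 56.9 to 82.9%), with a median of 42.0 TPM, as did 2 of 44 at 36 h (4.55%, 0.555 to 15.5%), at 107 and 13.2 TPM. At 48 h it is listed at 0. Means were 495 ± 362 TPM at 0 h, 191 ± 297 TPM at 12 h and 2.72 ± 16.2 TPM at 36 h. The log2 difference from 0 h was -1.37 at 12 h and -7.06 at 36 h, or -8.50 at 36 h without the highest cells, and with all 96 cells it was -0.31 at 12 h and -2.25 at 36 h. In even-numbered cells it was -0.79 at 12 h, also within 2-fold. Mmp11 lies on the opposite strand and shares 3367 bases with Chchd10 in GENCODE M21, and the sources used here do not say whether counting used strand. Mean Mmp11 was 2.70 TPM at 30 h, against 2.58 TPM at 6 h, and it was listed at 0 at 12 h, against 0.579 TPM at 0 h.

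**Figure D2:**
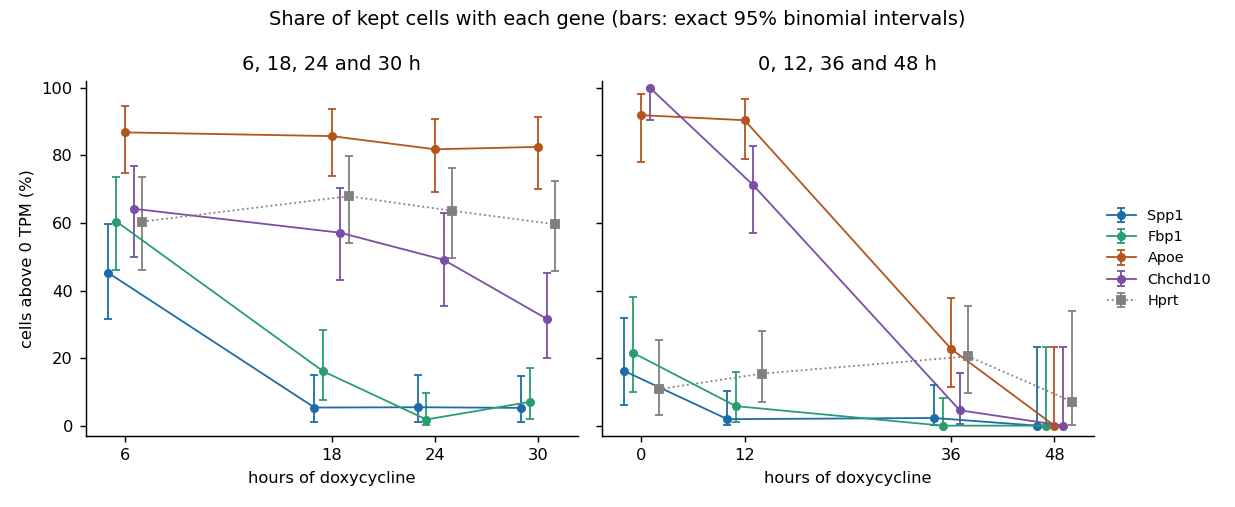
Share of kept cells above 0 TPM (percent) for the 4 genes and for Hprt, a gene used by all cells, against hours of doxycycline in the 2 sets, with exact 95% binomial intervals. Hprt lies between 59.6 and 67.9% from 6 to 30 h while Spp1 and Fbp1 end at 5.26 and 7.02%; in the other set Hprt itself is at 7.14 to 20.5%.

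The members' counts stand against the share of all genes that met the same criterion. At 18 h against 6 h 3 of the 4 members, Spp1, Fbp1 and Chchd10, were at least 2-fold lower, Chchd10 not under the 3 alternatives given above, and so were 7.36% of 6083 genes. The same 3 were at least 2-fold lower at 24 h, as were 6.28% of 6305 genes, and at 30 h, as were 6.03% of 6317 genes. Median log2 differences over all passing genes were 0.07, 0.24 and 0.20. At 12 h against 0 h Chchd10 was at least 2-fold lower and Apoe was not, the only members that passed, with 13.0% of 5848 genes lower. With all cells or even-numbered cells Chchd10 was not. At 36 h against 0 h both were lower, as were 28.5% of 5255 genes, and neither was among the 0.913% listed at 0 in every 36 h cell. At 48 h both were listed at 0 in every cell, as were 10.5% of 5099 genes. The comparisons of each set share their 6 h or 0 h cells, and nothing is read from counts that the choice of genes fixed.

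Because the 36 and 48 h cells were shallow, Apoe and Chchd10 were also compared at like numbers of genes, a step added after seeing the data. Among kept cells with under 4000 genes 6 of 6 had Apoe at 0 h (100%, lower bound 54.1%), as did 14 of 19 at 12 h (73.7%, 48.8 to 90.9%) and 10 of 44 at 36 h (22.7%). Chchd10 was above 0 in 6 of 6, in 12 of 19 (63.2%, 38.4 to 83.7%) and in 2 of 44 of these cells (4.55%). Their log2 differences at 36 h against 0 h were -3.92 and -7.25, about as large as over all kept cells. The match in depth was not full, since these cells had medians of 3912, 3350.0 and 2894 genes at 0, 12 and 36 h. Chchd2, the close relative of Chchd10, was in 97.3, 78.8, 31.8 and 42.9% of the kept cells at 0, 12, 36 and 48 h, where its means were 431, 432, 156 and 85.5 TPM. Gapdh was in 98.1, 97.7 and 92.9% of the cells at 12, 36 and 48 h, and in all at 0 h. How far depth sets the levels at 36 and 48 h was not tested further.

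**Figure D3:**
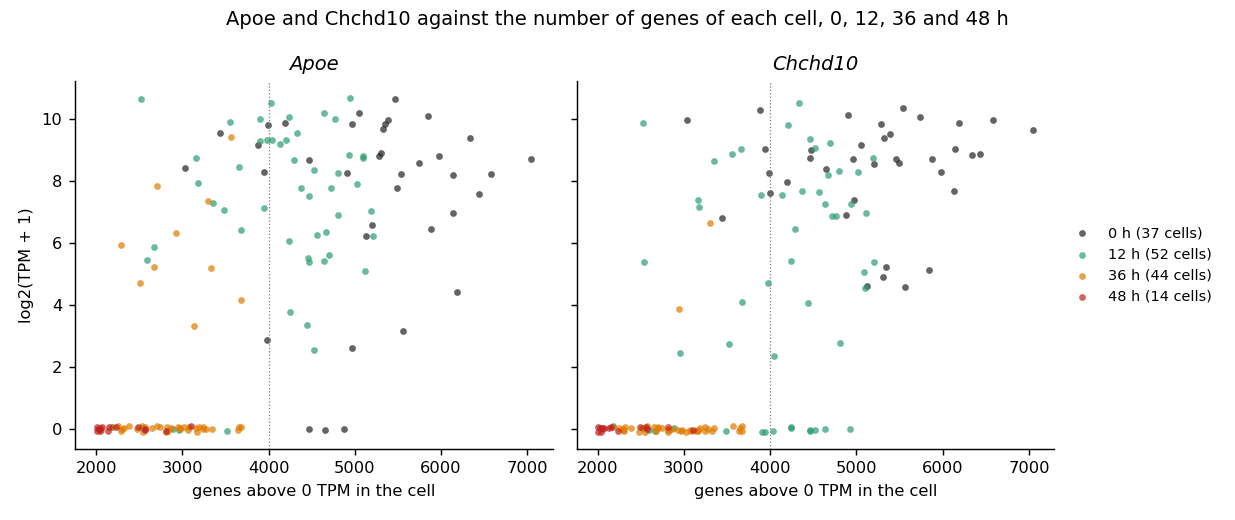
Apoe and Chchd10 as log2(TPM + 1) against the number of genes above 0 TPM in each kept cell at 0, 12, 36 and 48 h (37, 52, 44 and 14 cells); the dotted line marks 4000 genes. All 36 and 48 h cells lie left of the line, where the 0 h cells of both genes (6 cells) are above 0 and most 36 h cells (34 for Apoe, 42 for Chchd10) are at 0.

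Genes related to each member by role were set beside it at 30 h against 6 h. Many did not pass the filter and could not be judged. The members were chosen as falls and these genes by role, so a gap between them is no finding. Of the 5 genes of the osteopontin family only Spp1 passed the filter, and of 10 osteopontin receptors only Itgb1, the integrin beta subunit, which was higher (29.2 TPM at 30 h, against 11.6 TPM at 6 h, log2 1.26). Of 8 gluconeogenic genes 3 passed. Fbp1 was lower, while Pck2, the mitochondrial phosphoenolpyruvate carboxykinase (log2 1.13), and G6pc3, a glucose phosphatase (1.24), were higher. Less the median difference of all genes, 0.20, Pck2 was at 0.93 and within 2-fold. Fbp2, the muscle-type isozyme, did not pass and was named after its values were seen. At 30 h 0 of 57 cells had Fbp2, with room for 5.26%, against 6 of 53 at 6 h. The 3 of 7 phosphofructokinase genes that passed were within 2-fold, with Pfkl at -0.07, Pfkm at 0.31 and Pfkfb1 at -0.48.

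Of 10 apolipoproteins Apoe and Apoc1 passed. Apoc1, carried on the same lipoproteins, differed by -1.60 and was in 8.77% of cells at 30 h, against 49.1% at 6 h, while Apoe differed by -0.32. Of 6 cholesterol efflux genes Nr1h2, a nuclear receptor for oxysterols, passed and was within 2-fold (-0.80), though at -1.01 less the median of all genes. All 16 genes of the CHCH and MICOS list, small mitochondrial intermembrane space proteins and cristae organisers, passed. Chchd10 alone was at least 2-fold lower, Apool (1.13) and Chchd7 (1.12) were higher, and the list median was 0.14, close to 0.20 over all genes. Over all genes 6.03% were lower and 13.9% higher. Less the median of all genes 512 of 6317 genes were lower and 595 higher. Of the 16 on that scale 3 were lower, Chchd10, Apoo (-1.10) and Chchd4 (-1.04), and 0 higher. Chchd4, which takes part in protein import into that compartment, also differed by -1.21 at 12 h against 0 h. In that second comparison 11 of the 16 passed, 2 were lower and 1 higher, with a median of -0.44, against 0.04 over all genes. Of all genes 13.0% were lower there and 17.0% higher. At 36 h against 0 h, where Chchd10 differed most, 7 of the 11 that passed were at least 2-fold lower and 2 higher. Their median was -1.46, against -0.18 over all genes, of which 28.5% were lower and 22.5% higher. The 36 h cells were shallow, and the part of depth in this was not tested.

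**Figure D4:**
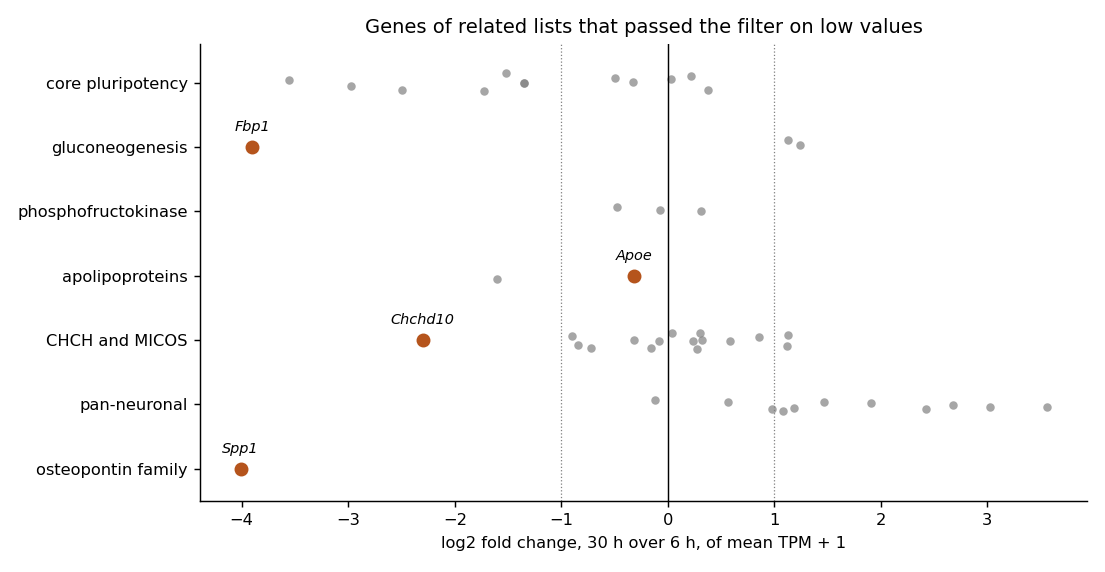
Log2 difference of mean TPM + 1, 30 h over 6 h, for genes of 7 lists that passed the filter (points spread vertically at random; dotted lines at 2-fold; orange, the 4 members). Chchd10 is at -2.30 and the other 15 CHCH and MICOS genes lie between -0.90 and 1.13. Fbp1 is at -3.90 and 2 other gluconeogenic genes are above 0. The members were chosen among the largest falls, Fbp1 on this comparison, so their places beside unselected genes are no finding.

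Among the lists of cell identity many stem cell genes were lower and many neuronal genes higher, and the rest of these 2 lists that passed were within 2-fold. Of 14 core pluripotency genes 12 passed at 30 h against 6 h, 7 were at least 2-fold lower and 0 higher, with a median of -1.35. Dppa2 (-3.56) and Utf1 (-2.97), chromatin-bound proteins of stem cells, and Pou5f1 (-2.50), the Oct factor, led them, with L1td1 (-1.73). Of 15 pan-neuronal genes 11 passed, 8 were higher and 0 lower, with a median of 1.47, led by Stmn2 (3.56), Nefl (3.02), Elavl3 (2.68) and Nefm (2.42). Pou5f1 was above 0 in 96.2% of cells at 6 h and in 89.3, 76.4 and 50.9% at 18, 24 and 30 h. At 18 h, when Spp1 was in 5.36% of cells, Pou5f1 was in most, at a mean of 70.1 TPM and a median of 43.6 TPM, against 307 and 316 TPM at 6 h. Over all genes 381 were at least 2-fold lower and 881 higher (13.9%), and less the median 512 were lower and 595 higher. On that scale the pluripotency count stayed at 7 lower, and 6 neuronal genes were higher. Of the remaining lists, T, a primitive streak factor, was the 1 of 10 streak genes that passed and was higher (5.26). Krt18 (2.23) and Krt8 (1.73), simple keratins, were the 2 of 5 passing epithelial genes that were higher, with Epcam at -0.94 (-1.14 less the median) and Cldn6 at -0.59. Isl1 (1.64) and Lhx3 (0.64) were the passing factor genes. Of 6 reference genes used by all cells 1, Hprt (1.91), was past 2-fold, at the same share of cells (59.6% at 30 h, against 60.4% at 6 h).

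Markers of other cell types were set beside these genes. Of 10 macrophage markers only Cd68 passed, at 1.34 TPM at 30 h, against 10.7 TPM at 6 h (-2.32). The summed markers ran from 0 to 35.7 TPM per cell at 30 h, against 0 to 126 TPM at 6 h, and Aif1, Tyrobp, Lyz2 and C1qa were at 0 in every cell of both. Of 6 osteoblast markers Alpl passed (-0.29). The sums ran from 0 to 152 TPM at 30 h, against 0 to 106 TPM at 6 h, and Sp7 and Ibsp were at 0 in both. Of 7 hepatocyte markers 0 passed, Alb, Tat and Apoa1 were at 0 in every cell, and the sums stayed at or under 12.3 TPM at 30 h and 8.64 TPM at 6 h. Of 11 endoderm markers Sparc passed (-0.55) and was in 75.4% of cells at 30 h, against 94.3% at 6 h. Their sums ran from 0 to 388 TPM at 30 h (median 31.3), against 0 to 423 TPM at 6 h (median 76.1), with Sox17, Foxa2 and Ttr at 0 in both. Of 6 trophoblast markers 0 passed, with sums of 0 to 33.3 TPM at 30 h, against 0 to 50.6 TPM at 6 h. Of 7 glial markers Fabp7 passed (1.77), with sums of 0 to 2171 TPM at 30 h (median 81.0), against 0 to 944 TPM at 6 h (median 24.1), and Gfap and Aqp4 at 0 in both. The part of such cells in the members' levels was not tested.

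The late carriers of Spp1 and Fbp1 were then read one by one. Of the 168 kept cells at 18, 24 and 30 h, 9 carried Spp1, 14 carried Fbp1 and 1 carried both. The 9 Spp1 carriers had Pou5f1 above 0 in 6 (66.7%, 29.9 to 92.5%), against 115 of the 159 other cells (72.3%, 64.7 to 79.1%). They had Lhx3 above 0 in 5 (55.6%, 21.2 to 86.3%), against 117 of 159 (73.6%, 66.0 to 80.3%). The 14 Fbp1 carriers had Pou5f1 in 10 (71.4%, 41.9 to 91.6%), against 111 of 154 (72.1%), and Lhx3 in 10 (71.4%), against 112 of 154 (72.7%). Pou5f1 was above 0 with Lhx3 at 0 in 4 of the 9 Spp1 carriers (44.4%, 13.7 to 78.8%), against 30 of 159 (18.9%). For Fbp1 it was 3 of 14 (21.4%), against 31 of 154 (20.1%). These shares pool 3 time points, over which Pou5f1 went from 89.3 to 76.4 and 50.9% of cells. Of the 14 Fbp1 carriers 9 were 18 h cells. The pooled shares thus mix carrier state with time and do not tell whether carriers differ from other cells of their own time. All 14 Fbp1 carriers also had Apoe (lower bound 76.8%), as had 126 of the 154 others (81.8%, 74.8 to 87.6%). Of the 9 Spp1 carriers 4 had Apoe (44.4%, 13.7 to 78.8%), against 136 of the 159 others (85.5%, 79.1 to 90.6%), a pair of intervals that all but meet and that was singled out after its values were seen.

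Single carriers differed in the genes beside the member. The highest Spp1 cell at 18 h (179 TPM) had 86.2 TPM of Pou5f1 and 93.2 TPM of Nanog, with 50.4 TPM of Stmn2 and with Lhx3 and Isl1 at 0. The highest Spp1 cell at 24 h (90.7 TPM) had 321 TPM of Pou5f1 and 9.74 TPM of Nanog. It also had 61.2 TPM of Stmn2, 7.54 TPM of Lhx3 and 8.62 TPM of Isl1. The highest Spp1 cell at 30 h (78.2 TPM) had 229.9 TPM of Pou5f1 and 256 TPM of Nanog. That 30 h cell had 42.3 TPM of Stmn2, with Lhx3 and Isl1 at 0. The highest Fbp1 cell at 18 h (101 TPM) had 165 TPM of Pou5f1, 12.1 TPM of Lhx3 and 38.1 TPM of Isl1, with Stmn2 at 0. The highest Fbp1 cell at 30 h (103 TPM) had Pou5f1, Utf1 and Nanog at 0, with 53.4 TPM of Lhx3, 94.8 TPM of Isl1 and 289.9 TPM of Stmn2. The 24 h cell with 53.6 TPM of Spp1 also had Pou5f1 at 0, with 10.9 TPM of Lhx3. At 36 h the lone Spp1 carrier (37.7 TPM) had 3031 TPM of Stmn2 and Pou5f1 at 0. Of the 3 Fbp1 carriers at 12 h, the cell with 282 TPM had 502 TPM of Pou5f1 and Lhx3 at 0, and the cell with 1081 TPM had Pou5f1 at 0 and 13.4 TPM of Lhx3.

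**Figure D5:**
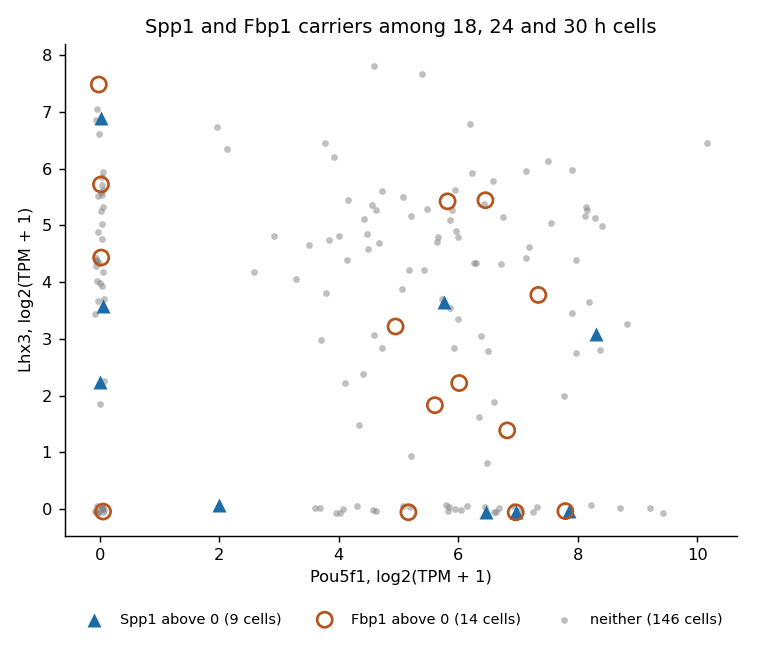
Pou5f1 against Lhx3, both as log2(TPM + 1), in the 168 kept cells at 18, 24 and 30 h, with 9 Spp1 carriers as triangles, 14 Fbp1 carriers as rings, 1 cell as both, and 146 other cells in grey (points moved slightly at random). Carriers lie in all parts of the cloud, on both axes and between them.

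Chchd10 carriers were set beside the other cells of their own time point. At 6 h 32 of 34 carriers had Utf1 (94.1%, 80.3 to 99.3%), against 15 of 19 other cells (78.9%, 54.4 to 93.9%), with means of 76.8 ± 93.3 TPM, against 40.4 ± 42.5 TPM. At 18 h 27 of 32 carriers had Utf1 (84.4%, 67.2 to 94.7%), against 10 of 24 other cells (41.7%, 22.1 to 63.4%), and 22 of 32 had Nanog (68.8%), against 9 of 24 (37.5%). Hprt was also in more of them, 26 of 32 (81.2%), against 12 of 24 (50.0%), and carriers had a median of 7752 genes, against 6959.5. At 12 h 30 of 37 carriers had Utf1 (81.1%, 64.8 to 92.0%), against 4 of 15 (26.7%, 7.79 to 55.1%), while Hprt was in 6 of 37 (16.2%), against 2 of 15 (13.3%), with medians of 4372 genes, against 4027. At 24 h the shares with Utf1 were 66.7% of carriers, against 57.1% of other cells, and at 30 h 22.2%, against 25.6%. At 12 h Hprt was above 0 in 15.4% of all kept cells, too few to show like depth. Of Pou5f1, Utf1, Lhx3 and Krt8, Utf1 had the highest Spearman correlation with Chchd10 at 6, 18 and 12 h, 0.36, 0.56 and 0.39. With Pou5f1 it was 0.04, 0.26 and 0.21, and with Lhx3 -0.07, -0.14 and -0.02. With Krt8 it was 0.04, -0.00 and 0.08, and with Stmn2 0.04 at 6 h and -0.07 at 18 h. The Utf1 gap thus does not stand for stem cell genes in general. The part of depth in the 12 and 18 h gaps was not tested.

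At 6 h the 24 Spp1 carriers had Krt8, a simple keratin, at 60.6 ± 94.3 TPM, against 326 ± 509 TPM in the 29 other cells, and in 17 of 24 (70.8%), against 27 of 29 (93.1%). All 24 had Pou5f1 (355 ± 251 TPM), as had 27 of the 29 others (267 ± 197 TPM over all 29). Fbp1 carriers went the other way for Krt8, with 281 ± 492 TPM in 32 carriers, against 90.4 ± 146 TPM in 21 other cells. These spreads over cells overlap, and the Spearman correlation with Krt8 was -0.44 for Spp1 and 0.25 for Fbp1 over 53 cells of 1 sample. Among Pou5f1, Utf1, Lhx3, Stmn2 and Krt8, Krt8 stood farthest from 0 for Spp1. For Fbp1 it was Stmn2, at -0.34, against 0.13 for Spp1.

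The 4 genes overlapped in part of the cells. At 6 h 14 cells had both Spp1 and Fbp1, with a Spearman correlation of -0.01 over 53 cells. Fbp1 was in 58.3% of the Spp1 carriers, against 60.4% of all cells. Spp1 was in 43.8% of the Fbp1 carriers, against 45.3% of all cells. This overlap was close to the shares over all cells. All 4 members were above 0 in 8 of 53 cells at 6 h, in 2 of 37 at 0 h and in 0 cells at the other times. Of the correlations between members within a time, the highest was 0.43, for Apoe and Chchd10 at 18 h over 56 cells, and at 6, 24, 30, 0 and 12 h it was 0.11, 0.25, 0.12, 0.04 and 0.25. These cells share culture and depth differences, and correlations of this size in sparse data are no finding.

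The genes most like Apoe and Chchd10, by the mean within-time Spearman correlation over 6, 18, 24 and 30 h among 8201 genes, were only weakly alike. None is given for Spp1 and Fbp1, which had under 10 carriers, too few for a correlation, at 18, 24 and 30 h. For Apoe they were RPL13 (0.37), ATP6V0C, LSM4, CAD and GM10653 (0.34 to 0.35), and for Chchd10 RPL13 (0.41), AK205379, PFN1, LSM4 and GM10653 (0.38 to 0.40). RPL13, LSM4 and GM10653 were common to both. At single times their values ran from 0.06 to 0.58, 0.16 to 0.60 and 0.05 to 0.59 with Apoe. With Chchd10 they ran from 0.27 to 0.63, 0.24 to 0.59 and 0.21 to 0.49. As the highest values of a search over 8201 genes these are no finding. Over 0 and 12 h, among 5813 genes, Apoe was most like PHF13 (0.49), AK090337, LAMB1-1, API5 and AK132687 (0.39 to 0.46). Chchd10 was most like PLEC (0.45), DPPA5A (0.44), a core pluripotency gene, PMM1, PNO1 and TXNDC17 (0.40 to 0.43).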

How the data were processed

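The authors deposited TPM values for 27723 genes in 768 cells, each cell summing to 1000000. With TPM alone the number of reads per cell is unknown. Bcl2fastq, Picard and mm10 appear, without versions, in the submitters' processing notes. An aligner and an annotation are not given there, though the column names carry the word rsem. Cells were sorted singly, and no doublet caller was run.

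The labels gave each cell its time point, and 0 columns lacked a label or held the same values as another. A cell was kept from 2000 genes above 0 upwards, which left out 400. Fold changes are log2 ratios of mean TPM + 1, which makes changes of low genes look smaller. The scripts were tested on simulated data, where only genes with higher means than Spp1, Fbp1 and Chchd10 had at 6 h were altered. Changes of genes as low as these were not tried. A gene passed if the time point with the higher mean reached 10 TPM and had the gene above 0 in 25% of cells. With 1 sample a time point no p-value was made, and called means at least 2-fold.

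The members and lists were chosen with earlier results of these data known. All 166 list genes were found, 163 under their own symbol and 3 under a RefSeq synonym. Besides the members the text names up to 4 passing genes of each list with the largest difference at 30 h against 6 h, reference genes, Pou5f1, Utf1, Lhx3, Stmn2, T and Krt8 in carriers, and the 5 genes most like Apoe and Chchd10 (Spp1 and Fbp1 had too few carriers). Nanog and Isl1 in carriers, Apoe in Spp1 carriers, Fbp2, Chchd2, Chchd4, Mmp11, the markers at 0 and the single cells were named after their values were seen. The list of Apoe receptors is not reported here. Sequences come from RefSeq (GRCm38.p6).

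Alternatives were pseudocounts of 0.1 and 10, subtraction of the median over genes, no filter, use of all cells, a limit of 4000 genes, the odd or the even cell numbers, means without the highest cells, detection at 10 TPM or among the 1000 highest genes of a cell, and carriers at 10 TPM. A limit of 1000 genes and kept cells with under 4000 genes were added after seeing the data. The scripts ran in Python 3.11.15 with numpy 2.4.6 for arrays, pandas 2.3.3 for tables, scipy 1.17.1 for intervals and matplotlib 3.10.9 for figures.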

Additional observations from a re-analysis of the deposited data

Results flagged for a closer look

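The 400 cells left out for having under 2000 genes entered comparisons only in the alternatives that took all cells or a lower limit of genes. Some of these 400 cells held the genes above the limit of 3 cells, 0.750% of all 400. Apoe was above 0 in 27 of them (6.75%, interval 4.50 to 9.67%), Chchd10 in 12 (3.00%, 1.56 to 5.18%) and Spp1 in 4 (1.00%, 0.273 to 2.54%). Fbp1, in 2 of 400 (0.5%), was below that limit. At 48 h Apoe was above 0 in 4 of 82 left-out cells (4.88%, 1.34 to 12.0%) and Chchd10 in 1 (1.22%, 0.0309 to 6.61%), although neither was seen in the 14 kept cells.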

How the results depend on the processing

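Each time point is 1 sample, so the members' differences have no error between samples, and 36 and 48 h are limited by depth. Of 165 alternative values of the members' log2 differences, 118 moved by less than 1.5-fold and 47 by more. The sign changed in 12. Of these 1 was of a member that passed the filter past 2-fold, Chchd10 at 24 h against 6 h, at 1.62 with all cells, which adds cells of few genes. Spp1 at 36 h against 0 h, which did not pass, was 0.17 with all cells and 0.71 with odd-numbered cells, and the other 9 were of Apoe (6) and Fbp1 at 12 h (3), within 2-fold at first. Pseudocounts set much of the size. For 30 h against 6 h, a pseudocount of 10 gave -2.09 for Spp1, -2.20 for Fbp1 and -1.35 for Chchd10, and 0.1 gave -4.63 for Spp1. For 36 h against 0 h a pseudocount of 10 gave -5.31 for Chchd10. Without the highest cells the values were -4.92 for Spp1 and -4.96 for Fbp1 at 30 h, and -4.62 for Apoe and -8.50 for Chchd10 at 36 h. All cells gave -1.87 for Apoe at 30 h, 0.84 for Apoe and -0.31 for Chchd10 at 12 h, and -2.25 for Chchd10 at 36 h. Even-numbered cells gave -4.81 for Fbp1 at 30 h and -6.13 for Chchd10 at 36 h, and odd-numbered cells -4.51 for Apoe and -8.46 for Chchd10 at 36 h. The cause was not tested.

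Of 136 alternative shares 93 lay within the interval of the share given, and 43 did not. Of those, 25 came from detection among the 1000 highest genes and 11 from detection at 10 TPM. The 16 alternative shares of late carriers with Pou5f1 or Lhx3 all lay within their intervals. Counts of genes at least 2-fold lower also moved. At 30 h against 6 h, 381 became 217 with a pseudocount of 10, 1063 with no filter and 965 with all cells; at 18 h, 448 became 207, 1126 and 787, and at 24 h, 396 became 245, 1078 and 759. At 12 h against 0 h, 763 became 426 with a pseudocount of 10, 2504 with no filter, 1403 with even-numbered cells and 1588 with kept cells under 4000 genes. At 36 h, 1496 became 3870 with no filter and 731 with all cells. The correlation of Apoe and Chchd10 at 12 h became -0.01 in cells with at least 4000 genes. No paired analysis was possible because cell numbers only name wells and no test was run. Alternatives that left under 5 cells at a time point were not run.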
